A study of Mus musculus with 20 samples.

Results

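PROMPTs (promoter upstream transcripts) are short-lived RNAs transcribed away from active promoters, on the strand opposite to the gene. The 3959 PROMPT regions described here are those of mouse protein-coding genes, as typed in GENCODE M21, whose mean raw gene count over the 3 wild-type libraries was at least 1000. They were taken from 55471 PROMPT regions in all, of which 21974 belong to protein-coding genes. The members were selected on wild-type gene counts alone, so the level of the genes in wild type is not a result, and comparisons that do not involve wild type used Btbd7 KO as the control. The libraries are total RNA from SIMS cells, an immortalised mouse salivary gland line grown in DMEM with 10% FBS. Cells were edited with Cas9, giving 3 separate Zcchc8 KO clones (clone 1, clone 2 and clone 3, with 4 libraries each) and a Btbd7 KO line (4 libraries) that serves as the edited control, beside unedited wild type (3 libraries in the PROMPT table). All groups share the cell line and the medium, and each edited group is a single line. The labels do not say whether libraries of a group came from separate cultures, so the p-values below measure only the spread between these libraries, which may be technical.

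PROMPTs are normally removed by the nuclear RNA exosome soon after they are made, which keeps them scarce at the promoters of active genes. The NEXT complex, in which the zinc knuckle protein ZCCHC8 is a scaffold for the RNA helicase MTR4 (Mtrex) and the RNA-binding protein RBM7, hands such short, non-polyadenylated transcripts to the exosome. The PAXT connection does the same for longer, polyadenylated nuclear RNAs.

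The regions lie next to promoters with a high G and C content. RefSeq start sites on GRCm38.p6 could be matched by symbol for 3150 of the 3959 genes. A window from 250 bases before to 50 bases after the start was taken for each. The medians and shares of windows in this report were read from the 250 bases before the start. Windows of these genes held a median of 19 CpG dinucleotides and 62.8% G or C, against 8 and 54.0% in 13378 windows of other protein-coding genes. The letters GGGCGG (or CCGCCC on the other strand), the core of a GC box, were found in 69.0% of the windows, in 38.7% of those of other protein-coding genes and in 39.4% of all 20573 windows. CCAAT (or ATTGG) was found in 36.3%, 36.0% and 35.2% of these sets and TATAAA, on either strand, in 4.98%, 13.6% and 12.2%. A match of letters is a description of the window, not a mapped site.

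The windows of 5 regions are shown because the results below turn on them: Cd44, Otud4 and Cltc have an upstream stretch of 5 kb free of annotated genes and their PROMPT regions rose, Cdk2 has a coding gene upstream and rose as well, and Hspd1 shares its promoter with the divergent gene Hspe1 and its region fell. They are written 5′ to 3′ on the strand of the gene, so the PROMPT is read from the complementary strand towards the left, and capitals mark GGGCGG or CCGCCC and CCAAT or ATTGG. The positions on GRCm38.p6 are chr2:102901616-102901915 (minus strand) for Cd44, chr8:79639426-79639725 (plus strand) for Otud4, chr11:86757518-86757817 (minus strand) for Cltc, chr10:128705002-128705301 (minus strand) for Cdk2 and chr1:55088194-55088493 (minus strand) for Hspd1.
Cd44: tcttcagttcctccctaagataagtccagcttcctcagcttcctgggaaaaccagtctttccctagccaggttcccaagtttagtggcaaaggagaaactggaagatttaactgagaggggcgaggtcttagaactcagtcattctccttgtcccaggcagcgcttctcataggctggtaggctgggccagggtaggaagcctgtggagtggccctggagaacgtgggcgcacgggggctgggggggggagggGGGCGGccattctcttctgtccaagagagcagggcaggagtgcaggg
Otud4: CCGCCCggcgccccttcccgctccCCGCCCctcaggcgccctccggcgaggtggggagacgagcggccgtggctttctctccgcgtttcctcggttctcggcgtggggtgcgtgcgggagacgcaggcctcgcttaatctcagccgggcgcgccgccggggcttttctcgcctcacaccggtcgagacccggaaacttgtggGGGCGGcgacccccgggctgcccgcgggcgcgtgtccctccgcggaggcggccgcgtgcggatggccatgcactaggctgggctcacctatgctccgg
Cltc: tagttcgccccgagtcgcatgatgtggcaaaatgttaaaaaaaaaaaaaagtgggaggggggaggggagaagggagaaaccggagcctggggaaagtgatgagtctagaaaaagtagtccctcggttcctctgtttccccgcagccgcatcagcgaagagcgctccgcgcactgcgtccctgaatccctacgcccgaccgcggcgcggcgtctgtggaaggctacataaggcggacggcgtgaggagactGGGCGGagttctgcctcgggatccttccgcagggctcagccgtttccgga
Cdk2: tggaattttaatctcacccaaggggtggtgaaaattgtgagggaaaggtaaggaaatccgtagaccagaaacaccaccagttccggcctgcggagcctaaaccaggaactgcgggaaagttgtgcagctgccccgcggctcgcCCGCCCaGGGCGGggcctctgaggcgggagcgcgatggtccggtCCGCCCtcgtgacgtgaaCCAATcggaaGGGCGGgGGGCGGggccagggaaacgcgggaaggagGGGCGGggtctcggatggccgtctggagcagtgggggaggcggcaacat
Hspd1: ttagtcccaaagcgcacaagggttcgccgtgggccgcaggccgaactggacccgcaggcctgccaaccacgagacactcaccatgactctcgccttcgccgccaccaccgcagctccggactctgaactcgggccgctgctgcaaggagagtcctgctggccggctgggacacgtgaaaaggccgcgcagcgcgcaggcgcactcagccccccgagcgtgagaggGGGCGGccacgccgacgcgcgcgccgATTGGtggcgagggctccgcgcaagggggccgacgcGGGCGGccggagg
Counted over all 300 bases shown, the Cd44 window holds 1 GC box motif and 6 CpG, the lowest CpG number of these windows. The Otud4 window holds 3 GC box motifs and 43 CpG, the Cltc window 1 and 27, the Cdk2 window 6 with 1 CCAAT motif and 25 CpG, and the Hspd1 window 2 with 1 CCAAT motif and 39 CpG.

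The 19 libraries of the PROMPT table held 1569548 to 3966608 PROMPT counts and 6833258 to 17771804 gene counts, and clone 1 was the shallowest group, with 6833258 to 7683444 gene counts. All values below are scaled by the gene totals of the same library, with edgeR's TMM factors of the gene table (a correction for differing composition), and are given as CPM, that is, counts at a common library total. Zcchc8 itself had 65.2 ± 3.4 gene CPM (SD, n = 3) in wild type, 62.2 ± 4.0 (n = 4) in Btbd7 KO, 60.8 ± 4.2 (n = 4) in clone 1, 23.5 ± 1.4 (n = 4) in clone 2 and 54.5 ± 5.0 (n = 4) in clone 3. Clone 2 was the lowest, the range of clone 3 (50 to 61.0) lay just under that of wild type (61.5 to 68.1) and clone 1 overlapped wild type, and a count over the whole gene does not show a small Cas9 edit. Groups are named by their labels throughout. Btbd7 had 199 ± 6.4 CPM in wild type and 99.1 ± 3.4 in Btbd7 KO. All 7 epithelial and duct markers were detected. They summed to 4154 to 5037 CPM in wild type, 4344 to 4463 in Btbd7 KO and 3115 to 4009 over the clones. None of the 3 endothelial markers reached a mean of 1 CPM. That mean was reached by 1 of the 4 myoepithelial or basal, 3 of the 4 fibroblast, 1 of the 3 immune and 2 of the 4 acinar markers. The sums below thus rest on few genes. The 4 myoepithelial or basal markers summed to 284.9 to 394.2 CPM in wild type, 398.5 to 420.1 in Btbd7 KO, 164.3 to 214.9 in clone 1, 259 to 329.2 in clone 2 and 190 to 223.8 in clone 3. The 4 fibroblast markers summed to 15.1 to 18.4 in wild type, 22.6 to 35.2 in Btbd7 KO, 10.2 to 13.9 in clone 1 and 22.1 to 28.6 in clones 2 and 3. The 3 immune markers summed to 4.52 to 6.18 in wild type, 5.44 to 6.61 in Btbd7 KO, 8.15 to 13.6 in clones 1 and 2 and 4.06 to 6.65 in clone 3. The 4 acinar markers summed to 167.4 to 184.3 in wild type, 109.5 to 114.3 in Btbd7 KO and 113.8 to 165.6 over the clones, so both edited kinds of line lay below wild type. The part of these sums in the results below was not tested. In these bulk libraries, more cells holding a transcript and more transcript per cell cannot be told apart.

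PROMPT RNA of the highly expressed genes was more abundant in all 12 Zcchc8 KO libraries than in the 7 control libraries, while Btbd7 KO lay beside wild type. Summed over all 3959 regions, without any filter, PROMPT counts per 1000 gene counts were 16.95 to 17.39 in wild type, 16.77 to 16.96 in Btbd7 KO, 30.97 to 31.79 in clone 1, 27.51 to 28.27 in clone 2 and 27.58 to 28.97 in clone 3. The ranges of the clones did not overlap those of either control. Over the 2109 regions whose start has no further annotated gene in the 5 kb before it, the same sum was 1.82 to 1.86 in wild type, 1.70 to 1.78 in Btbd7 KO, 9.0 to 9.38 in clone 1, 7.29 to 7.48 in clone 2 and 7.27 to 7.77 in clone 3. Vars, which encodes valyl-tRNA synthetase, supplied a large share of that control signal, and without its region the sum was 1.41 to 1.49 in wild type, 1.35 to 1.41 in Btbd7 KO and 6.78 to 8.92 over the clones. Regions with at least 1 count numbered 2801 to 3132 in wild type, 2911 to 3166 in Btbd7 KO and 3498 to 3697 in the clones. The 2801 came from wild type replicate 4, with 17481454 gene counts, while Btbd7 KO replicate 3 had 2911 at 8280397. In that wild-type library 17442 genes had a count, against 18791 in replicate 2 and 18187 in replicate 3. The cause was not tested.

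The typical region moved in the same direction as the sum over all regions, and by more. The median over all 3959 regions of log2 PROMPT count over gene count (0.5 added to each) was −8.22 ± 0.06 (SD, n = 3) in wild type, −8.20 ± 0.08 (n = 4) in Btbd7 KO, −5.61 ± 0.04 (n = 4) in clone 1, −5.88 ± 0.02 (n = 4) in clone 2 and −5.86 ± 0.05 (n = 4) in clone 3. Clone 1 was the highest group on this scale and also the shallowest, and the part of depth in that order was not tested.

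**Figure D1:**
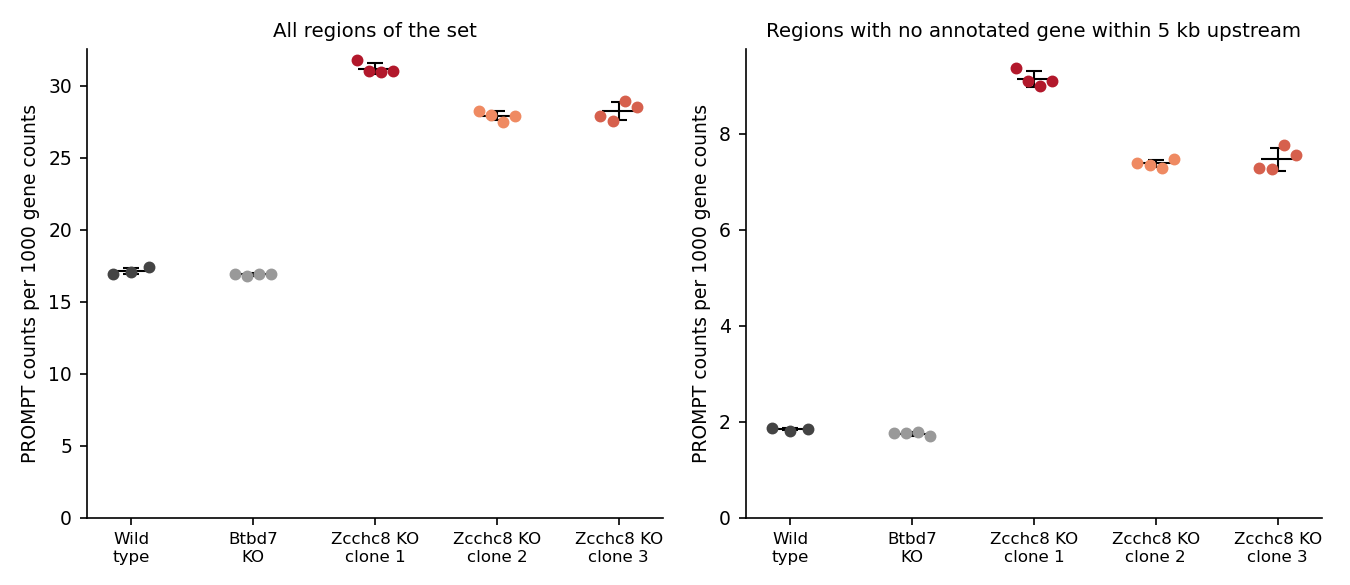
PROMPT counts per 1000 gene counts (vertical axes) by group, over all 3959 regions and over the 2109 regions with no annotated gene within 5 kb upstream; points are libraries, bars the mean with SD. Over all regions the 12 Zcchc8 KO libraries sit between 27.51 and 31.79, and the 7 control libraries between 16.77 and 17.39.

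Region by region, 3207 of the 3959 PROMPTs (81.0%) had enough counts to be tested, and 752 did not, none of them with a mean above 5.32 counts per library. No count was seen for 75 regions in any library and for 445 in the wild-type libraries. A region that passed the filter only through counts in the clones had to differ, so the counts of calls describe the tested regions and not all 3959. With edgeR's quasi-likelihood test and a Benjamini-Hochberg adjusted p under 0.05, 2430 regions were higher in the mean of the 3 clones than in wild type, 75.8% of those tested, where 39.7% of all 17646 tested PROMPT regions were called higher. Lower calls numbered 42, against a background of 3.51%. The median log2 fold change was 2.08 with quartiles of 0.84 and 3.08, and it was 0.44 over all tested PROMPT regions. Of the calls, 2204 were over 2-fold higher, 1663 over 4-fold and 340 over 16-fold. Calls did not come from regions empty in wild type alone: among 1788 tested regions with a wild-type mean of at least 10 counts, 1188 were higher, and among the 1419 below it, 1242 were. If libraries were scaled within the PROMPT table, which centres the median of all PROMPT regions near 0 (a shift of −0.46), higher calls made up 88.2% of the called regions in place of 98.3%, and the median log2 fold change of these regions was 1.63.

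Each clone showed the rise. Clone 1 had 2422 higher regions (background 39.2%) with a median log2 fold change of 2.26, clone 2 had 2263 (background 35.8%) with 1.95, and clone 3 had 2252 (background 36.5%) with 1.98. In Btbd7 KO, 37 regions were higher and 46 lower than in wild type, against backgrounds of 1.32% and 1.71%, with a median of −0.03. Those 83 calls fell to 48 without wild type replicate 4, and 565 regions had an unadjusted p under 0.05. Against Btbd7 KO, whose libraries did not choose the genes, 2543 regions were higher in the clones and 70 lower (backgrounds 45.5% and 5.83%), with a median log2 fold change of 2.11. This comparison and that with wild type share the 12 clone libraries.

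What lies upstream went with the size of the change. The counting rule for reads that a PROMPT region shares with another gene is not given in the sources used here, so the regions were split by the annotated gene nearest upstream within 5 kb. The largest set, 2109 regions with none, had 1595 tested, of which 1418 (88.9%) were higher and 0 lower, with a median log2 fold change of 2.65 and quartiles of 1.85 and 3.56. Over all PROMPT regions with no such gene, 2990 of 4279 tested (69.9%) were higher and 22 lower, with a median of 2.18. A divergent non-coding gene upstream gave similar values: 338 of 379 tested regions (89.2%) were higher and 0 lower, with a median of 2.16. Over all tested PROMPT regions of that class 78.4% were higher, with a median of 1.92. Other non-coding neighbours gave 93 higher of 117 (79.5%), with a median of 2.12, where the whole class had 51.6% higher and a median of 0.96.

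Coding neighbours went with smaller changes. With a divergent coding gene upstream (737 regions, 666 tested), 316 were higher and 30 lower, with a median log2 fold change of 0.42. Over all tested PROMPT regions of that class 33.2% were higher and 4.56% lower, so the share of lower calls here, 4.50%, was near its background. With a coding gene on the same strand (438 regions, 381 tested), 223 were higher and 11 lower, with a median of 0.84, where 23.5% and 5.43% of all tested regions of the class were. The remaining 69 tested regions with a coding neighbour had 42 higher, 1 lower and a median of 0.90. Over all tested regions of their class 15.9% were higher and 4.48% lower. Among the divergent pairs the change went with the distance between the starts. Where the neighbour started under 500 bases away, 191 of 507 tested regions were higher, 30 were lower and the median was 0.26. From 500 to 2000 bases it was 39 of 61 with a median of 0.91, and from 2000 to 5000 bases 86 of 98 with a median of 2.26, with 0 lower in either set. The split by distance was not made over all divergent coding PROMPT regions, so whether it is particular to this set was not tested. The level of a region in wild type also followed the neighbouring gene: across regions, Spearman's rho between the wild-type PROMPT count and the neighbour's gene count was 0.63 for divergent coding pairs (n = 735) and 0.59 for same-strand pairs (n = 438). Those points share libraries and depth and are not independent.

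**Figure D2:**
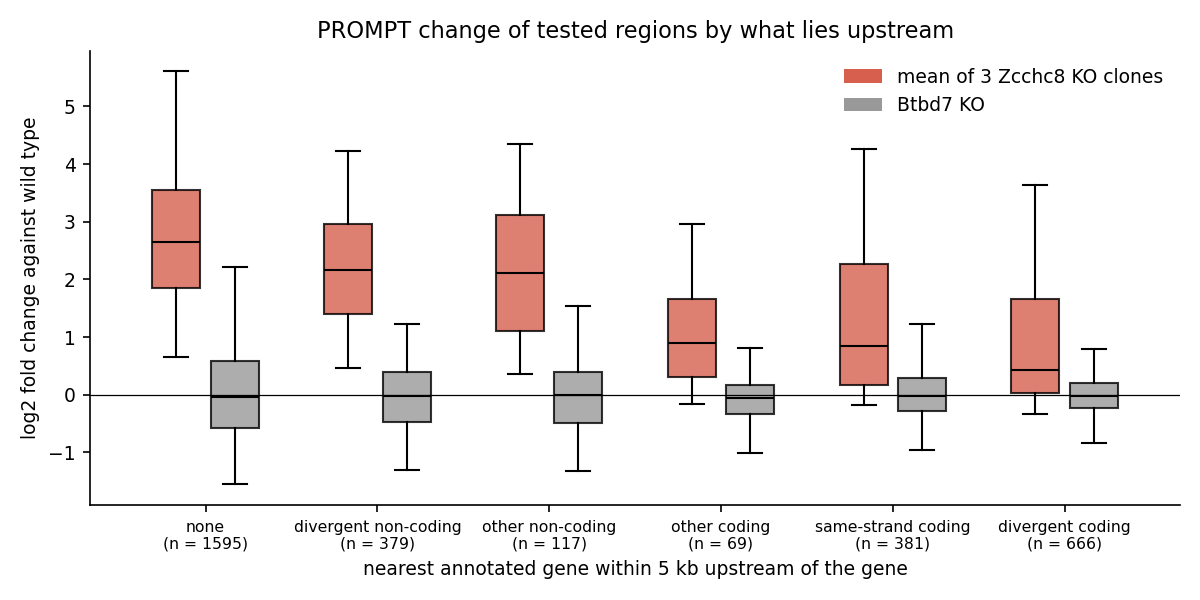
Log2 fold change of tested PROMPT regions against wild type (vertical axis) for the mean of the 3 Zcchc8 KO clones and for Btbd7 KO, by the nearest gene annotated within 5 kb upstream. Boxes span the quartiles with the median as a line and whiskers run from the 5th to the 95th percentile; the clone medians are 2.65 with no gene upstream, 0.84 with a same-strand coding gene and 0.42 with a divergent coding gene, and the Btbd7 KO medians lie near 0.

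Regions were ranked among those with a mean of at least 50 counts, called higher in each clone and not called in Btbd7 KO. Those with the highest fold changes belonged to genes of varied function. The first is the region of Cd44, which encodes the cell-surface receptor for hyaluronan (gene at chr2:102811141-102901665, minus strand, no gene within 5 kb upstream). Its PROMPT had 0, 0 and 0.411 CPM in wild type, 0.480, 0.0663, 0.496 and 0.678 in Btbd7 KO, 13, 15.8, 14.9 and 14.2 in clone 1, 9.44, 8.54, 7.48 and 7.70 in clone 2, and 6.43, 3.54, 5.11 and 10.2 in clone 3. Every clone library lay above every control library, and clone 1 lay above the other 2 clones without overlap. The log2 fold change of the clones over wild type was 5.88 ± 0.42 (SE, adjusted p = 4.12e-19) and over Btbd7 KO 4.45, while the Cd44 gene differed from Btbd7 KO by 0.01 (adjusted p = 0.89).

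Ubqln2, an intronless X-linked gene for a ubiquilin that carries ubiquitinated proteins to the proteasome, had PROMPT values of 0.346, 0.592 and 0.117 CPM in wild type, 0.597 to 0.992 in Btbd7 KO and 14.2 to 21.4, 17.3 to 18.9 and 12.9 to 17.4 in clones 1 to 3. The 3 clones overlapped each other and none overlapped a control (log2 fold change 5.61 ± 0.26, adjusted p = 1.33e-27). Tbc1d15, which encodes a GTPase-activating protein for Rab7, had 0.0586 to 0.404 CPM in wild type, 0.124 to 0.678 in Btbd7 KO and 6.76 to 11.3 over the clones (5.34 ± 0.35). Phka2, for a regulatory subunit of phosphorylase kinase, rose by 5.25 ± 0.40, with 0 to 0.518 CPM in wild type and 4.67 to 14.8 in the clones. Immt, for the core protein of the mitochondrial cristae junction complex, rose by 4.86 ± 0.26, from 0.222 to 0.520 CPM in wild type and 0.663 to 0.932 in Btbd7 KO to 9.26 to 19.3 in the clones. No clone library of these 4 regions reached down to a control library.

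Cdk2 is among the highest fold changes with a coding gene upstream. The cyclin-dependent kinase gene lies at chr10:128697939-128705031 on the minus strand, and Pmel, a melanosome protein gene, is annotated on the other strand with its start inside Cdk2. The Cdk2 PROMPT had 0.231, 0.444 and 0.176 CPM in wild type, 0.300, 0, 0.496 and 0.509 in Btbd7 KO, 8.15, 9.10, 7.0 and 6.20 in clone 1, 7.08, 9.19, 6.16 and 7.56 in clone 2, and 8.48, 6.19, 7.16 and 6.49 in clone 3. All 12 clone libraries lay above all 7 controls and the clones overlapped each other (4.71 ± 0.36, adjusted p = 7.74e-18, clone difference adjusted p = 0.964). The same rule named Luc7l3, a U1 snRNP-associated splicing factor (4.65 ± 0.26), Cgn, the tight junction protein cingulin (4.53 ± 0.39), and Nedd4, a HECT-type ubiquitin ligase (4.48 ± 0.29). It also named the phosphoinositide phosphatase gene Pip4p2 (4.48 ± 0.24) and Rnf19a, for a RING-type ubiquitin ligase (4.47 ± 0.21). Their adjusted p-values ran from 1.48e-27 for Rnf19a to 2.23e-15 for Cgn, and none was called in Btbd7 KO.

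Regions with more counts and no neighbour gave the same direction with less counting error. Otud4 (deubiquitinase gene at chr8:79639618-79677724, plus strand) had PROMPT values of 2.54, 3.33 and 4.93 CPM in wild type, 2.52, 2.19, 6.08 and 3.9 in Btbd7 KO, 90.8, 96.6, 113 and 109 in clone 1, 51.9, 53.6, 42.2 and 55.6 in clone 2, and 57.8, 53.9, 64.3 and 68.9 in clone 3. Clone 1 lay above the other clones, and all clones above the controls (4.24 ± 0.16, adjusted p = 1.52e-31). The gene itself differed from Btbd7 KO by −0.21. Cltc, the clathrin heavy chain gene at chr11:86694351-86757565 on the minus strand, had 1.96, 5.77 and 2.87 CPM in wild type, 2.52, 2.59, 3.97 and 2.71 in Btbd7 KO, 41.8 to 54.6 in clone 1, 46.1 to 51.1 in clone 2 and 36.4 to 41.7 in clone 3 (3.73 ± 0.16, adjusted p = 5.31e-29). Clones 1 and 2 overlapped, and clone 3 lay just below both.

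Spaca6, a gene known for a sperm protein of gamete fusion, had PROMPT values of 1.70 to 4.52 CPM in wild type, 2.72 to 5.58 in Btbd7 KO and 44.9 to 88.3 over the clones (4.08 ± 0.16), and its gene count rose too, by 0.69 over Btbd7 KO (adjusted p = 1.2e-12). Tab2, an adaptor of the TAK1 kinase, rose by 3.37 ± 0.17 and Gcc2, a Golgi-tethering golgin, by 3.22 ± 0.16. Jund, an AP-1 transcription factor gene without introns, rose by 3.17 ± 0.14, from 3.18 to 4.45 CPM in wild type and 2.34 to 3.85 in Btbd7 KO to 38.6 to 51.1, 24.3 to 30.9 and 31.1 to 33.5 in clones 1 to 3. For Tab2, Gcc2 and Jund the gene differed from Btbd7 KO by −0.03, −0.04 and 0.12, none with an adjusted p under 0.05.

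**Figure D3:**
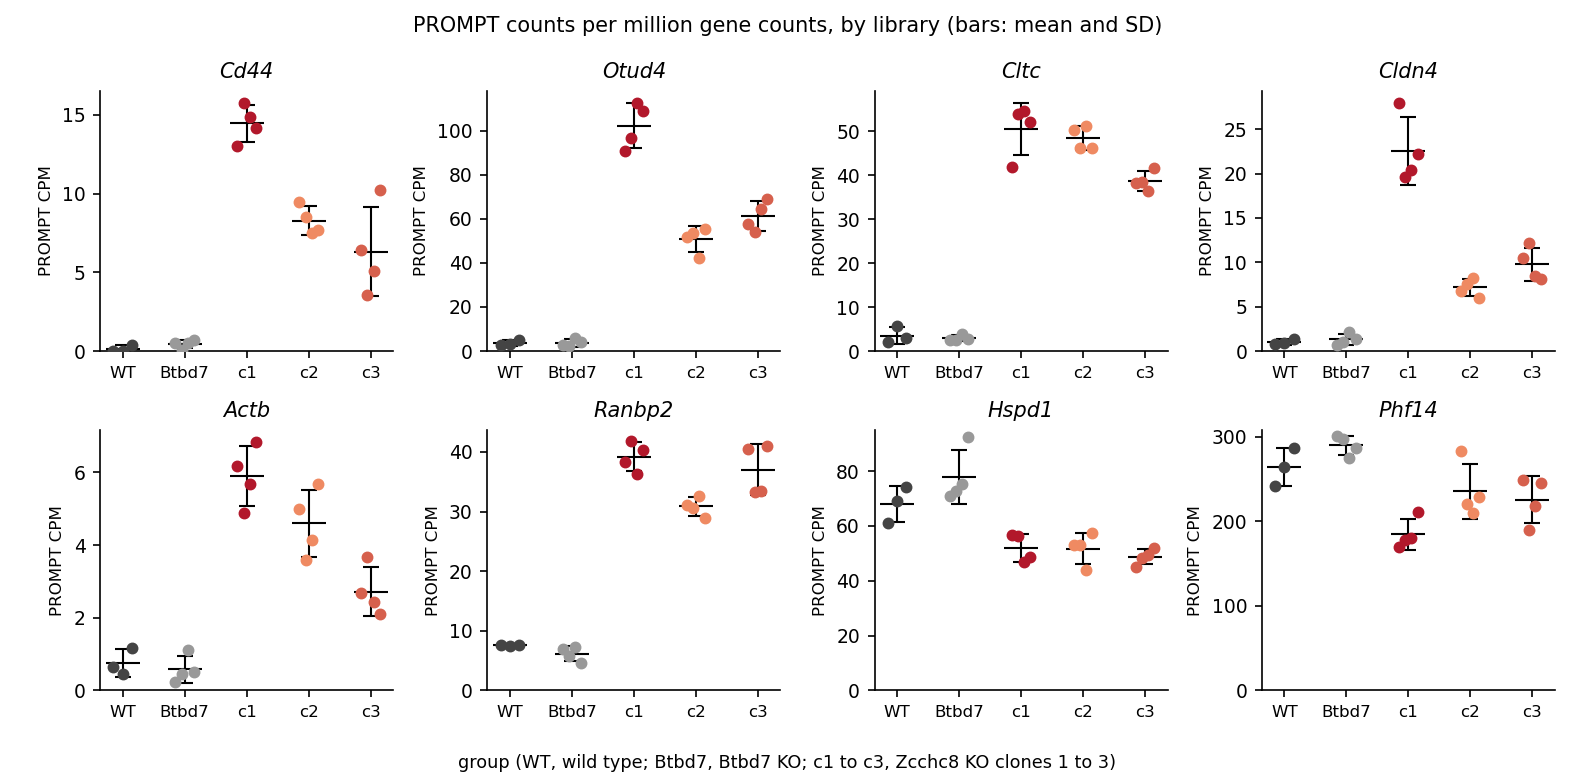
PROMPT CPM (vertical axes) in each library for selected regions, by group (WT wild type, Btbd7 the Btbd7 KO line, c1 to c3 the Zcchc8 KO clones); points are libraries, bars the mean with SD. For Otud4 the clone libraries lie between 42.2 and 113 and the controls between 2.19 and 6.08, while for Hspd1 the clones lie between 43.8 and 57.3 and the controls between 61.1 and 92.6.

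The most highly expressed genes carried the rise as well, on few PROMPT counts. Ranbp2, a nuclear pore protein gene, had 7.68, 7.47 and 7.62 PROMPT CPM in wild type, 4.58 to 7.32 in Btbd7 KO and 29.0 to 41.8 over the clones (2.23 ± 0.12, adjusted p = 8.13e-24). Ahnak, for a giant scaffold protein, had 0.704 to 1.56 in wild type, 0.995 to 2.10 in Btbd7 KO and 6.57 to 13.6 in the clones (2.94 ± 0.24). Actb, cytoplasmic beta-actin, had 0.635, 0.444 and 1.17 CPM in wild type (11, 6 and 20 counts), 0.240 to 1.12 in Btbd7 KO, 4.89 to 6.84 in clone 1, 3.59 to 5.69 in clone 2 and 2.10 to 3.66 in clone 3 (2.43 ± 0.34, adjusted p = 9.6e-09). None of these 3 overlapped a control library.

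Elongation factor regions were near the limit of detection. The Eef2 PROMPT had 0 to 8 counts per wild-type library and 6 to 31 in the clones (2.08 ± 0.63, adjusted p = 0.00523, and 0.0553 without wild type replicate 4). That of Eef1a1 had 0 to 8 in wild type and 4 to 16 in the clones, and its 1.60 ± 0.70 did not pass (adjusted p = 0.0586, and 0.265 at most under the alternatives). It passed under 4 of 25 alternatives, namely DESeq2 and leaving out wild type replicate 2, clone 2 replicate 4 or clone 3 replicate 1. Of 7 mitochondrially encoded genes in the set, 2 could be tested and the regions of mt-Co1, mt-Nd1, mt-Nd2 and mt-Nd5 were at 0 in every library. The mt-Cytb region, with 1176, 1422 and 1848 CPM in wild type, differed by 0.28 (adjusted p = 0.00149, and 0.157 without wild type replicate 2), and reversed to −0.14 if scaled within the PROMPT table. A mitochondrial gene has no promoter of its own upstream, so that region is not a PROMPT in the usual sense.

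The regions that fell lay beside coding genes. All 42 regions lower than in wild type had a coding gene within 5 kb upstream, and the lowest log2 fold change was −0.72. The count of 42 was 7 when a region had to be lower in each of the 3 clones, 13 with cell lines as replicates, 26 without TMM factors, 0 with a 2-fold minimum and 272 with scaling within the PROMPT table. Of the 70 lower than in Btbd7 KO, 67 had a coding gene upstream. Over all tested PROMPT regions it was 346, 415 and 199 of 1029 in the same classes. The neighbouring gene was called lower in the clones than in Btbd7 KO for 34 of the 42 and higher for 1. In the same contrast 25.4% of all tested genes and 45.2% of the 3959 genes of the set were lower. Hspd1 and Hspe1 are a divergent pair for the mitochondrial chaperonin and its co-chaperonin, with the annotated start of Hspe1 inside Hspd1. The region upstream of Hspd1 (gene at chr1:55077835-55088243) had 61.1, 68.9 and 74.3 CPM in wild type, 70.8, 72.9, 75.4 and 92.6 in Btbd7 KO, 56.6, 56.4, 47.0 and 48.5 in clone 1, 53, 53, 43.8 and 57.3 in clone 2, and 45.2, 48.5, 49.4 and 51.9 in clone 3. Every clone library was below every control library (−0.42 ± 0.09, adjusted p = 3.19e-05). Against Btbd7 KO the region changed by −0.62 and the Hspe1 gene by −0.62.

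Other regions lower than in wild type are given beside their neighbours. Values against Btbd7 KO, which share the control libraries, were −0.37 for the region of the translation factor gene Eif2a and −0.39 for the gene Serp1, −0.54 for the region of the heat shock factor gene Hsf1 and −0.51 for Bop1, and −0.43 for the region of the proteasome ATPase gene Psmc2 and −0.46 for Dnajc2. The region of Shc1, a signalling adaptor gene, differed by −0.16 from Btbd7 KO, which did not pass (adjusted p = 0.0519), and its neighbour Cks1b by −0.15. These 4 neighbours are divergent. Ecm1, an extracellular matrix gene, has the same-strand neighbour Tars2, and the values were −0.48 and −0.42. These regions were named because they fell. Whether reads of the neighbours entered the PROMPT counts was not tested.

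Phf14 and Ndufa4 show the 2 sides of a divergent promoter. Ndufa4 encodes a small mitochondrial respiratory protein and Phf14 a PHD-finger protein, and their starts are 312 bases apart. The region of Phf14, which lies on the Ndufa4 side, had 241 to 286 CPM in wild type, 275 to 301 in Btbd7 KO and 170 to 283 in the clones (−0.30 ± 0.07, adjusted p = 0.000533). Against Btbd7 KO it changed by −0.44 and the Ndufa4 gene by −0.40. The region of Ndufa4 had 0.962 to 1.39 CPM in wild type, 1.66 to 2.64 in Btbd7 KO and 2.66 to 5.16 in the clones. It rose by 0.84 over Btbd7 KO, while the Phf14 gene differed by 0.12 (adjusted p = 0.099). The clones did not overlap the controls for the Ndufa4 region, and clones 2 and 3 overlapped them for the Phf14 region.

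Among the most counted regions, those of Gpx1, Rdh10, Slc3a2, Hist1h4k and Vars did not pass the test in the mean of the clones, with log2 fold changes of −0.16 to 0.05. Slc3a2 has the snoRNA host gene Snhg1 upstream, and Hist1h4k sits in a histone cluster. Of 18 histone genes in the set, 15 regions were tested, 4 were higher, 1 was lower and the median log2 fold change was 0.01.

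The rise was not matched by the genes. The comparison against Btbd7 KO was used, since wild-type gene counts had chosen the set. Of the 3959 genes, 750 were higher in the clones than in Btbd7 KO and 1789 lower (backgrounds 23.7% and 25.4% of 15542 tested genes), with a median log2 fold change of −0.09 and a median absolute change of 0.17. The ratio of PROMPT to gene counts, fitted with a term for each library so that no scaling of libraries can alter it, was higher in the clones than in Btbd7 KO for 2658 of the 3207 tested regions and lower for 25 (backgrounds 48.1% and 9.28% of 11535), with a median log2 difference of 2.18. For Cd44 the ratio rose by 4.43 and for Otud4 by 4.52 over Btbd7 KO. For Hspd1 it changed by −0.29 (adjusted p = 0.091).

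**Figure D4:**
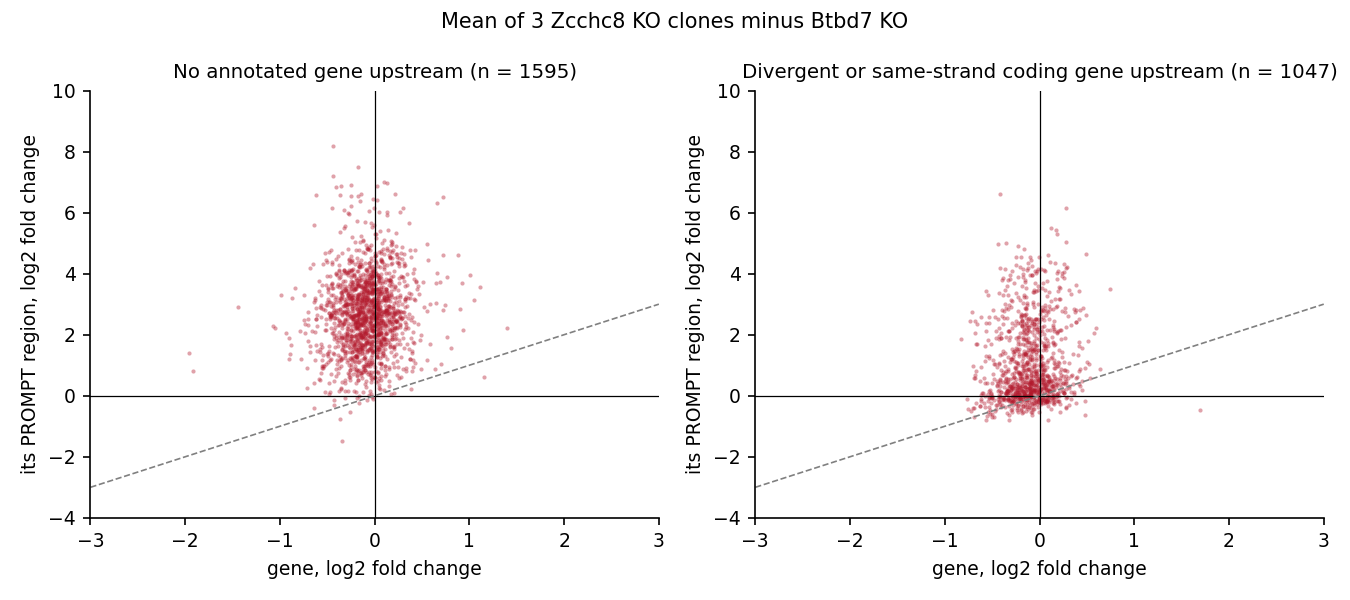
Log2 fold change of the PROMPT region (vertical axis) against that of its gene (horizontal axis), mean of the 3 Zcchc8 KO clones minus Btbd7 KO, one point per tested region, for the 1595 regions with no gene upstream and for those with a divergent or same-strand coding gene. The dashed line marks equal change; most points of the first set lie well above it, and a part of the second set lies along it near 0.

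Within the set, fold changes were of similar size at every level of gene expression. Regions of genes with a wild-type count of 1000 to 2000, 2000 to 4000, 4000 to 8000 and at least 8000 had median log2 fold changes of 1.98, 2.13, 2.22 and 2.36, and with no gene upstream 2.65, 2.69, 2.58 and 2.74. For less expressed protein-coding genes with no gene upstream, the median was 2.57 at 100 to 1000 counts (1030 of 1254 tested regions higher), close to the 2.58 above. It was 1.88 at 10 to 100 counts (148 of 231) and 0.58 under 10 (61 of 225). These medians hold only for regions that passed the filter, and the difference between levels was not tested. The level of PROMPT relative to gene was another matter. With no gene upstream, PROMPT counts per 1000 counts of their own genes were 6.39 in wild type, 6.07 in Btbd7 KO and 37.4, 29.4 and 30.6 in clones 1 to 3 for the 1015 genes of the lowest bin. For the 100 genes of the highest bin they were 1.08, 1.07 and 8.94, 6.60 and 6.88. The 319 genes of 4000 to 8000 counts had 6.81 in wild type with Vars and 3.07 without it, and 22 and 18.1 in clone 1. Neither count is corrected for length, so bins are read across groups. Across the 2109 regions, Spearman's rho of gene count with PROMPT count was 0.16 in Btbd7 KO and 0.18 between Btbd7 KO genes and clone PROMPTs, and PROMPT counts in Btbd7 KO and the clones gave 0.83. These are descriptions over regions that share libraries and depth.

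**Figure D5:**
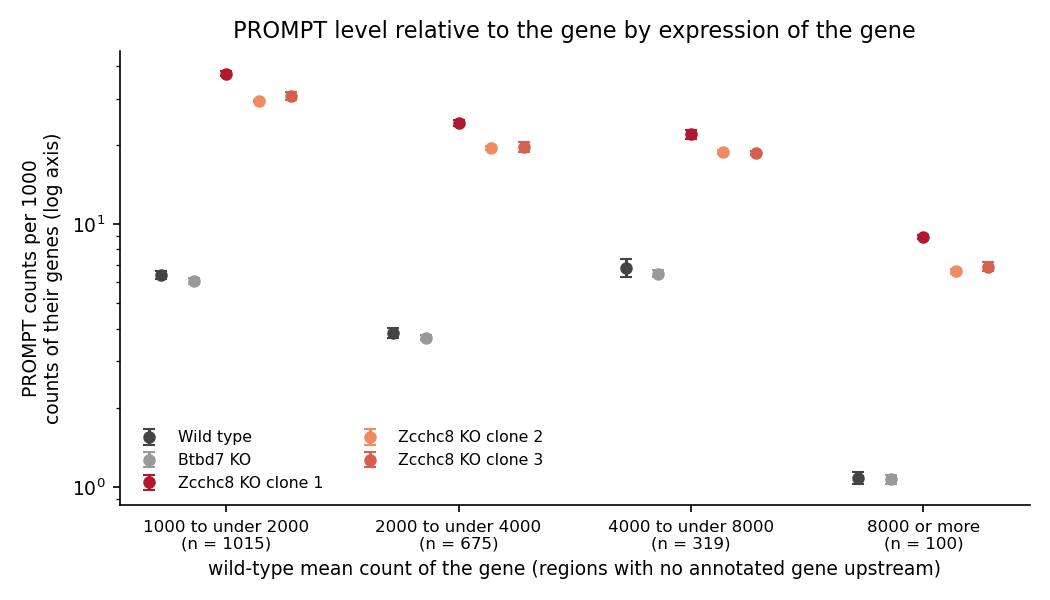
PROMPT counts per 1000 counts of their own genes (vertical log axis) by wild-type gene count (horizontal axis), for the 2109 regions with no gene within 5 kb upstream; points are group means and bars the SD over libraries. The clones lie above both controls in each bin, with 37.4, 29.4 and 30.6 against 6.39 and 6.07 in the lowest bin and 8.94, 6.60 and 6.88 against 1.08 and 1.07 in the highest.

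Promoter letters went with small differences at most. The letters were compared in 1265 tested regions with no gene upstream and a RefSeq start matched by symbol. The distance of that start from the GENCODE start was not limited, so some windows may lie away from the GENCODE start. Of the 3150 matched genes of the whole set, 2378 had a RefSeq start within 100 bases of it. Among the 1265 regions, the median log2 fold change was 2.69 with the GC box letters in the window (922 regions) and 2.65 without (343). It was 2.76 with the CCAAT letters (434) and 2.63 without (831), and 2.54 with TATAAA (56) and 2.68 without (1209). Spearman's rho of the fold change with the number of CpG was 0.06 and with the G and C content 0.03 across these regions. The poly(A) signal AATAAA was sought in the 250 bases before the start. On the strand of the PROMPT it was found for 4.25% of the set and for 8.64% of other protein-coding genes. On the strand of the gene the shares were 5.17% and 10.55%.

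Each of the 16 functional lists held regions that rose. The lists were chosen with earlier results of these data known, and their counts are read against the 75.8% higher among all tested regions of the set. Among immediate early and AP-1 genes, 13 of 14 tested regions were higher, with a median of 2.94. Junb had 21.2 to 23.3 CPM in wild type, 16.9 to 27.7 in Btbd7 KO, 160 to 173 in clone 1, 90.5 to 106 in clone 2 and 110 to 117 in clone 3 (2.48 ± 0.10), with clone 1 above the others and clone 3 above clone 2. Among RNA-binding and splicing factors, 61 of 76 were higher and 1 lower (median 2.23), including 27 of 27 with no gene upstream. Hnrnpu, a nuclear matrix RNA-binding protein gene, had 0.528 to 1.27 CPM in wild type, 0.124 to 1.32 in Btbd7 KO and 11 to 20.4 in the clones (4.23 ± 0.24). Stress response and amino acid genes had 16 of 18 higher (median 2.7).

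The next lists hold housekeeping genes, and no test compared one list with another. Cytoskeleton genes had 26 of 31 higher (median 2.43), translation factors 22 of 32 with 2 lower (2.26), and chaperones 21 of 27 with 2 lower (1.91). Calr, the calreticulin gene, had 1.88 to 3.75 CPM in wild type, 1.19 to 2.04 in Btbd7 KO and 5.61 to 14.1 in the clones (1.79 ± 0.21, adjusted p = 4.14e-11). Hspa8, the constitutive HSC70 gene, rose by 3.17 ± 0.31 and Hsp90ab1 by 2.80 ± 0.42. Glycolysis genes had 7 of 10 higher and 1 lower (1.39): Pkm, the pyruvate kinase gene, had 3.46, 3.48 and 5.28 CPM in wild type, 2.04 to 4.46 in Btbd7 KO and 30.0 to 57.8 in the clones (3.26 ± 0.15), whereas Aldoa, whose upstream annotation is a second same-strand entry of its own name, had 2.02 to 2.87 CPM in wild type and 0.555 to 3.84 in the clones (0.04 ± 0.32, adjusted p = 0.942). Ribosomal protein genes had 23 of 42 higher and 1 lower, with a median of 0.96. With no gene upstream 10 of 11 were higher, while Rpl4, which has Zwilch 271 bases away, rose by 0.62 ± 0.17. Nuclear genes of oxidative phosphorylation had 9 of 19 higher and 2 lower (1.01).

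The remaining lists lay near the whole set. Extracellular matrix and adhesion genes had 26 of 34 higher (median 2.12), with fibronectin (Fn1) up by 2.20 ± 0.25 and thrombospondin 1 (Thbs1) by 3.18 ± 0.27. Cell cycle and replication genes had 54 of 72 higher and 1 lower (2.20), proteasome and ubiquitin genes 45 of 58 and 2 lower (2.01), and transcription and chromatin genes 52 of 70 (1.92). Cholesterol and fatty acid synthesis genes had 13 of 17 higher (2.27), with the fatty acid synthase gene Fasn at 0.115 to 0.938 CPM in wild type and 3.33 to 9.99 in the clones (3.36 ± 0.33). Of p53 targets and apoptosis genes 11 of 14 were higher (1.97), among them the anti-apoptotic gene Mcl1 (2.77 ± 0.18).

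Genes of the decay machinery itself gave 6 of 11 higher with a median of 0.94, and 2 of these 11 have no annotated gene upstream. The region of Srrt, which encodes the cap-linked protein ARS2, had 32.5, 32.5 and 36.5 CPM in wild type, 29.8 to 31.8 in Btbd7 KO and 39.5 to 53.6 in the clones (0.47 ± 0.09, adjusted p = 1.17e-05), and its gene was higher by 0.40 over Btbd7 KO. The regions of Mtrex, which encodes MTR4, and Dis3, the exosome's catalytic subunit, have divergent coding genes under 500 bases away. They had log2 fold changes of −0.33 ± 0.27 (adjusted p = 0.358) and 0.22 ± 0.23 (adjusted p = 0.457), and their clone and control libraries overlapped.

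The 3 clones differed among themselves for 377 of the tested regions (11.8%), near the 10.9% of all tested PROMPT regions. Clone 1 was the highest in 298 of them, clone 2 in 52 and clone 3 in 27. Of the 377, 306 were also called higher in the mean of the clones. The same split by clone was not made over all PROMPT regions, so whether it is particular to this set was not tested. The regions that follow were named for the smallest p-values of this clone test, so their calls were fixed by that choice. Prrg4, for a transmembrane Gla protein, had 1.29 to 2.07 CPM in wild type, 2.45 to 4.49 in Btbd7 KO, 22.1 to 28.5 in clone 1, 6.94 to 10.1 in clone 2 and 10.7 to 15.3 in clone 3 (clone difference adjusted p = 2.98e-11). No 2 groups overlapped, and Prrg4 was also called in Btbd7 KO (0.97, adjusted p = 0.0136). Cldn4, a tight junction claudin gene, had 19.6 to 28 CPM in clone 1, 5.96 to 8.29 in clone 2 and 8.11 to 12.1 in clone 3, against 0.808 to 1.35 in wild type and 0.719 to 2.11 in Btbd7 KO (adjusted p = 2.22e-10). Fnbp4, a formin-binding protein gene, had 35.1 to 42.6, 16.3 to 18.7 and 20.7 to 24.9 in clones 1 to 3, without overlap (adjusted p = 9.32e-10). The lower depth of clone 1 moved with this order, and its part was not tested.

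The largest changes called in Btbd7 KO rested on low counts, although 23 of the 83 called regions had a wild-type mean under 10 counts and the rest had more. The regions below were named for their change in Btbd7 KO against wild type, so a 0 in wild type is part of that choice. Rnf44, for a RING-finger protein, was at 0 in all 3 wild-type libraries. It had 0, 1, 8 and 3 counts in Btbd7 KO and 11 to 37 in the clones, that is, 0 to 0.992 and 1.53 to 4.47 CPM. Mpp5, a cell polarity scaffold gene, and Ss18, a chromatin remodelling subunit gene, were also at 0 in wild type, with 1 to 10 and 0 to 8 counts in Btbd7 KO. In CPM, Mpp5 had 0.120 to 0.848 in Btbd7 KO and 0.406 to 1.49 in the clones. Ss18 had 0 to 0.992 and 0.144 to 1.35, so for both regions the clones overlapped Btbd7 KO. The lower calls were of the same kind. Ankrd40 had 1, 1 and 12 counts in wild type, 0 in each Btbd7 KO library and 10 to 60 in the clones, Smtn, a smooth muscle cytoskeletal gene, had 2, 6 and 5, then 0 in each, then 3 to 31, and Fam49b had 9, 1 and 27 against 0 to 2 and 10 to 20.

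At the edge of the rule, the genes just inside were Polg (1000 wild-type counts), whose region had too few counts to be tested, and Card19 (1000.3), at 0 in wild type and at 1 to 29 counts in the clones. Just outside were Bin1 (999.0), whose PROMPT had 0.528 to 0.808 CPM in wild type and 1.26 to 6.27 in the clones, and Ccnd3 (998.7), with 0.296 to 2.25 and 0.875 to 2.17.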

How the data were processed

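Total RNA of SIMS cells was made into stranded libraries with the Illumina TruSeq Stranded Total RNA kit, per the labels' protocols. The authors deposited raw read counts per gene and per PROMPT region, and the submitters' processing notes name FastQC and STAR 2.7.3a. The genome build, the counting tool, its strand setting, the extent of a PROMPT region and the rule for shared reads are not given in the sources used here. Gene types and coordinates came from GENCODE M21 (GRCm38), where 55230 of 55471 identifiers matched without their version. Promoter windows came from RefSeq on GRCm38.p6.

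From these counts, edgeR 4.0.16 (R 4.3.3) quasi-likelihood models were fitted over the whole PROMPT table after filterByExpr, with all 19 libraries in 5 groups and library sizes and TMM factors of the gene table. Calls have a Benjamini-Hochberg adjusted p under 0.05 over all regions tested, and SEs were taken as the fold change over the square root of F. The PROMPT to gene ratio was fitted on both tables together with a term per library. The scripts were tested on simulated data. Wild type replicate 1 has gene counts but no column in the PROMPT table used here. PROMPT totals of 1569548 to 3966608 counts per library limit regions of few counts, and replicates of a group differed beyond sampling noise (chi-square over its degrees of freedom, 2.81 to 7.33). The other deposited count tables, of regulatory features without gene names, were not used. Same-numbered replicates did not deviate together (correlations of −0.0442 to 0.0285), so no pairing was used.

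Named regions were chosen by rule: the 12 highest and 6 lowest fold changes called in the mean and each clone but not in Btbd7 KO with a mean of at least 50 counts, the 6 highest with no neighbour and at least 200 counts, the 10 highest genes, the 10 highest PROMPT totals, the 3 highest and lowest Btbd7 KO calls, the 4 smallest clone difference p-values, the genes at the threshold, and list members with the highest gene counts. The set, lists and tests were chosen with earlier results of these data known. Alternatives were DESeq2 1.42.0, other scalings, filters, gene thresholds and controls, the replicate as a block, and leaving out each library. For the PROMPT to gene ratio, limma 3.58.1 was also run on the log2 ratio, with 0.5 or 2 added to each count. Some regions that the rule named are not reported here.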

Additional observations from a re-analysis of the deposited data

Results flagged for a closer look

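In groups of 4 libraries, 116 sets of values were examined for a library far from the other 3, and 9 had one, where chance gives about 1 in 20. PROMPT counts per 1000 gene counts over all regions were 16.8 in Btbd7 KO replicate 2 (the other 3 at 16.93 to 16.96) and 31.8 in clone 1 replicate 1 (30.97 to 31.04). The median log2 ratio of PROMPT to gene count over regions with no gene upstream was −9.06 in Btbd7 KO replicate 3 (−9.17 to −9.16). Btbd7 KO replicate 3 also stood above its group for the PROMPTs of Cltc, with 3.97 CPM (2.52 to 2.71), and Tab2, with 5.58 CPM (3.9 to 4.11). In clone 1, the Gcc2 region had 32.0 CPM in replicate 4 (37.9 to 39.0). In clone 2, the Ahnak region had 8.90 CPM in replicate 2 (13.1 to 13.6) and the mt-Cytb region 1323 CPM in replicate 3 (1782 to 1863). In clone 3, the Eef2 region had 1.41 CPM in replicate 1 (0.758 to 0.811).

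The 3 Zcchc8 KO clones differed in 14 of 46 named regions by edgeR's test of the clone difference, with Benjamini-Hochberg adjusted p-values. That test called 10.9% of all tested PROMPT regions. Prrg4, Cldn4, Fnbp4 and Otud4 were named for the smallest p-values of this same test, so their calls were fixed by that choice. Regions that rose in each clone but to different extents, with log2 fold changes over wild type in clones 1, 2 and 3, were Prrg4 (3.99, 2.35 and 3.05, adjusted p = 2.98e-11), Cldn4 (4.45, 2.81 and 3.24, 2.22e-10), Fnbp4 (4.66, 3.49 and 3.87, 9.32e-10) and Otud4 (4.82, 3.81 and 4.08, 5.55e-09). The same held for Spaca6 (4.54, 3.87 and 3.84, 3.25e-06), Jund (3.60, 2.82 and 3.08, 3.47e-06), Cd44 (6.53, 5.72 and 5.39, 0.000892) and Gcc2 (3.50, 2.96 and 3.19, 0.00835). Immt (5.23, 4.76 and 4.60, 0.0173), Actb (2.93, 2.57 and 1.80, 0.0231) and Phka2 (5.73, 5.05 and 4.96, 0.0404) completed this set. Clone 1 had the highest value in each of these 11. Regions beside abundant neighbours differed by less: Phf14 (−0.52, −0.17 and −0.23, 0.00513), Slc3a2 (−0.15, 0.02 and −0.35, 0.0125) and Rdh10 (0.03, −0.17 and −0.24, 0.0198).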

How the results depend on the processing

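Under the alternatives, 316 summary values stayed near the reported ones and 31 moved. The rule for near was wide. Counts were judged by their ratio, so 2430 higher regions becoming 3423 with genes of at least 500 counts was near. Medians were near within the SD of the 3 clones' medians, 0.171. Leaving out each of the 19 libraries counted as an alternative, although such fits share nearly all of their data. Keeping genes of at least 2000 counts left 1332 higher and 19 lower regions in the mean of the clones, 1333, 1251 and 1231 higher in clones 1 to 3, 1398 higher than Btbd7 KO, 42 called in Btbd7 KO and 211 differing among clones; keeping regions with no gene upstream left 1418, 0, 1410, 1343, 1346, 1457, 33 and 155 in the same order, with a median log2 fold change of 2.65. Both sets hold fewer regions by construction. The 42 lower calls became 26 without TMM factors, 272 with scaling within the PROMPT table, 0 with a 2-fold minimum, 7 when required in each clone, 70 with Btbd7 KO as control, 13 with cell lines as replicates and 67 with genes of at least 500 counts. The 83 Btbd7 KO calls became 26 with only the groups compared in the fit, 45 with the 2-fold minimum and 48 without wild type replicate 4. The 377 clone differences became 602 with only the clones in the fit. The median of 2.08 became 1.63 with scaling within the PROMPT table and 1.89 with genes of at least 500 counts, and the 25 lower ratios became 12 against wild type. Apart from fewer regions or a stricter rule by construction, the cause was not tested.

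Leaving out each library in turn gave 2314 to 2444 higher and 32 to 43 lower regions in the mean of the clones, 2343 to 2432, 2157 to 2278 and 2135 to 2267 higher in clones 1 to 3, 48 to 101 calls in Btbd7 KO, 2403 to 2589 higher than Btbd7 KO, 294 to 441 clone differences, medians of 2.05 to 2.09, and 2536 to 2700 higher and 18 to 27 lower ratios. With the replicate number as a block, 2383 regions were higher and 39 lower, 68 were called in Btbd7 KO and 368 differed among clones. Of 46 named regions, 36 kept their call and direction under every alternative run for them, up to 27 each. With scaling within the PROMPT table, Hist1h4k (−0.42), Vars (−0.36) and mt-Cytb (−0.14) reversed and Gpx1, Rdh10 and Slc3a2 were called lower. Eef1a1 passed under DESeq2 and without wild type replicate 2, clone 2 replicate 4 or clone 3 replicate 1. Baz2a lost its call without TMM factors or wild type replicate 2, mt-Cytb without replicate 2 and Eef2 without replicate 4, where Fam49b and Slc3a2 passed. Depth limits the 752 regions not tested.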
